A study of Sus scrofa with 8 samples.

Results

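The migration of muscle precursors from the somite to the limbs, tongue and diaphragm involves a small set of signals and regulators, and 7 of these genes are described here in the pig embryo: the ligands HGF and CXCL12, the receptors MET, CXCR4 and ACKR3, the adaptor GAB1 and the transcription factor LBX1. The genes were taken by name, and all 7 were among the 21301 genes of every count matrix. Single-cell RNA sequencing was done on somites at embryonic day (E) 16, E18 and E21 and on the myotome, the muscle-forming part of the somite, at E28. Tibetan pigs (ZZ) and the Duroc by Tibetan cross (DZ) each gave 1 library a stage, 8 in all, and each library pooled 5 embryos of 1 sow. The software that counts molecules, Cell Ranger, was version 3.1.0 at E16 and 3.0.2 at the later stages, so that stage and software cannot be told apart at E16, nor stage and tissue at E28.

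In vertebrate embryos PAX3-positive cells at the lateral edge of the dermomyotome lose their epithelial form and migrate when HGF, secreted by mesenchyme along their route, binds the receptor tyrosine kinase MET. GAB1 is the docking protein that carries the signal of MET and other receptor kinases into the cell, and LBX1 marks the precursors that take this path. CXCL12 is a chemokine of mesenchyme that attracts cells bearing CXCR4, among them muscle precursors, endothelial cells and many neurons, and ACKR3 removes CXCL12 from the surroundings of a cell.

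Positions are those of the RefSeq annotation of the Sscrofa11.1 assembly. LBX1 (ENSSSCG00000022693) is at chr14:112283479-112287631 on the minus strand and CXCL12 (ENSSSCG00000034973) at chr14:91516383-91543857 on the plus strand. MET (ENSSSCG00000024351) spans chr18:29426044-29541526 on the minus strand and HGF (ENSSSCG00000015403) chr9:98437771-98513573 on the plus strand. CXCR4 (ENSSSCG00000039416) is at chr15:15663652-15666706 and ACKR3 (ENSSSCG00000016322) at chr15:136370457-136382559, both on the plus strand, and GAB1 (ENSSSCG00000009048) at chr8:84257958-84391511 on the minus strand. The counts come from the 3′ end of transcripts, so levels are compared for a gene between cells and not between genes.

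After quality control 74147 of 90688 barcodes were kept, 5436 to 10956 cells a library with 39852689 to 57568895 UMIs (unique molecular identifiers, each an RNA molecule counted once). In E16-ZZ 39.2% of barcodes exceeded the limit of 10% mitochondrial UMIs, against 1.05% to 9.15% in the other libraries. Of 89679 barcode sequences 1001 occurred in more than 1 library, 23 to 49 for each of the 28 pairs of libraries. Cells were gated on genes other than the 7. The PAX3+ gate (PAX3 without the myogenic factors MYF5, MYOD1 and MYOG) held 2736 cells, the MYF5+ gate (MYF5 without MYOG) 4333, the mesenchymal gate (at least 2 of PDGFRA, PRRX1 and COL3A1) 17068 and the endothelial gate (at least 2 of 6 endothelial genes) 2507. The PAX3+ and MYF5+ gates left out cells with SOX10, PAX6 or the endothelial genes PECAM1 or CDH5. The mesenchymal gate left out cells with PAX3, a myogenic factor, SOX10, PAX6, PECAM1, CDH5 or EPCAM. The endothelial gate left out cells with PAX3, a myogenic factor, SOX10, PAX6, EPCAM or PTPRC. Cells that met the rules of both the mesenchymal and the endothelial gate were kept in both. PAX3+ cells numbered 173 to 628 a library up to E21 and were fewest in E28-DZ, with 61, and MYF5+ cells 28 and 31 at E16 and 268 to 1677 later.

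Markers that no gate required showed what the gates hold. EPCAM and MYOD1 are among them, but the mesenchymal and endothelial gates left out cells with either, so both are 0 there by rule. The endothelial gate carried KDR at 148.99 to 306 CPM (UMIs of the gene per 1000000 UMIs) and EGFL7 at 453 to 1107 CPM in every library. In the PAX3+ gate the somite gene MEOX1 stood at 43.3 to 117 CPM, but 1684 of the 2736 cells had no UMI of MEOX1, TCF15, DMRT2 or MEOX2, so results for PAX3+ cells are also given for the 1052 cells with such a somite marker, a split made after the data were seen. In the mesenchymal gate COL1A1, COL1A2, DCN, LUM and COL6A3 together stood at 782 to 2521 CPM early and 1971 to 4926 CPM late. MYF5+ cells had MYOD1 at 0 in 3 of the 4 early libraries and at 33.3 to 141 CPM in the late ones. Genes listed as markers of other cells moved with the stage in every gate. The neuronal gene STMN2 stood at 39.3 to 119.8 CPM in early and 547 to 1766 CPM in late PAX3+ cells, and the epithelial gene KRT8 at 2444 to 7127 CPM in early and 3.71 to 103 CPM in late mesenchymal cells. The epithelial genes EPCAM, CDH1, KRT8 and CLDN6 together stood at 2487 to 7196 CPM in early mesenchymal cells and 229 to 360 CPM in early erythroid cells. In those mesenchymal cells the sum lay close to KRT8 alone, and EPCAM was 0 by the rule of the gate. The part of other cells or of free RNA in the differences between stages was not tested. Erythroid cells served as the reference for free RNA, except for ACKR3, with a median of 3727 to 13194 UMIs a cell in each library.

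Levels below are CPM of the UMIs summed over the cells of a gate in a library, given for each stage as ZZ and then DZ. Early libraries are the 4 of E16 and E18 and late libraries the 4 of E21 and E28. Differences are log2 fold changes of edgeR's quasi-likelihood test on summed counts with Benjamini-Hochberg adjustment over all genes tested, called at an adjusted p under 0.05. The p-values measure the spread left by the model of each test. Late against early, with breed as covariate, this is the spread between pooled libraries of a period, stages included. For DZ against ZZ, with stage as a block, it is the spread of the breed difference between stages. Between gates, with library as a block, it is the spread of the gate difference between libraries. Each library pools embryos of the same sow, so sow and library cannot be told apart and single embryos are not seen.

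**Figure D1:**
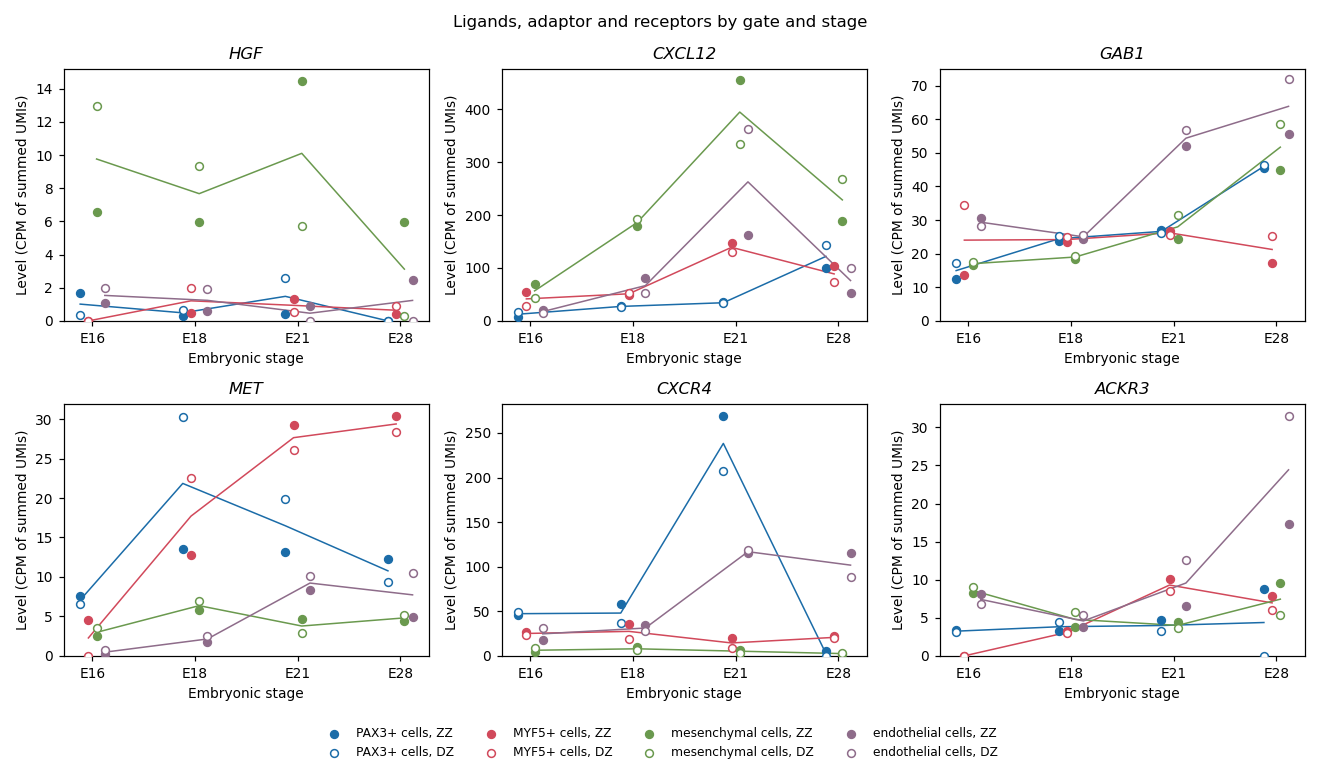
Level of each gene in CPM of summed UMIs (vertical axes, from 0) at E16, E18, E21 and E28 in the 4 gates, with a filled point for ZZ, an open point for DZ and a line through the mean of both. Of these gates HGF and CXCL12 lay highest in mesenchymal cells in every library but E28-DZ for HGF and E21-DZ for CXCL12. MET lay highest in PAX3+ or MYF5+ cells, and CXCR4 in PAX3+ cells up to E21 and in endothelial cells at E28. LBX1 is not drawn because it had at most 1.92 CPM in any gate.

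Of the HGF UMIs 44.9% were in the mesenchymal gate and 50.8% outside the 4 gates. The levels of this ligand of MET in mesenchymal cells were 6.55 and 13.0 CPM (E16), 5.98 and 9.37 (E18), 14.5 and 5.72 (E21) and 5.94 and 0.303 (E28). The E28-DZ library was the lowest, with 4 UMIs in 3595 cells against 105 UMIs in 4177 cells of E28-ZZ, and early and late libraries overlapped. In PAX3+, MYF5+ and endothelial cells the highest value was 2.56 CPM, and the mesenchymal level was the highest of the 4 gates in every library but E28-DZ, where it was 0.303 CPM against 0.881 CPM in MYF5+ cells. In erythroid cells no HGF UMI was found in the 46 to 335 cells of any library, which allows a share of up to 6.52% of cells in the library with fewest. Outside the gates SOX10+ cells of E28-ZZ had 16.7 CPM, from 19 UMIs in 212 cells, above the mesenchymal level of that library. The low level in E28-DZ was also seen over all cells, with 45 UMIs against 287 in E28-ZZ and 91 to 226 in the 6 earlier libraries.

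CXCL12, the ligand of CXCR4, was among the 4 gates highest in mesenchymal cells in every library but E21-DZ, and epithelial cells of E16-DZ, outside the gates, had 74.3 CPM. The mesenchymal levels were 69.4 and 44.1 CPM (E16), 179.6 and 192 (E18), 455 and 335 (E21) and 188 and 269 (E28). Both E16 libraries were the lowest and both E21 libraries the highest, with E28-ZZ inside the range of E18. MYF5+ cells had 54.4 and 28.7 CPM (E16), 49.5 and 53.0 (E18), 148 and 130.2 (E21) and 103 and 74.1 (E28), so that every late library was above every early one. Levels in PAX3+ cells were 7.54 and 17.7 CPM (E16), 27.9 and 26.8 (E18), 35.3 and 33.3 (E21) and 99.8 and 144 (E28). Again all late libraries lay above the early ones, although E21 exceeded E18 by little and the E28 libraries were far higher, in DZ on 61 cells. In endothelial cells the levels were 20.4 and 14.8 CPM (E16), 80.9 and 52.5 (E18), 163 and 363 (E21) and 51.9 and 101 (E28), and the periods overlapped because E28-ZZ was below E18-ZZ and near E18-DZ. The erythroid reference was at 2.45 to 22.9 CPM, and in these 4 gates only the E16 libraries of PAX3+ and of endothelial cells lay within that range.

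MET, the receptor of HGF, was among the 4 gates highest in PAX3+ or MYF5+ cells in every library. PAX3+ cells had 7.54 and 6.60 CPM (E16), 13.5 and 30.2 (E18), 13.1 and 19.9 (E21) and 12.3 and 9.30 (E28), with the maximum in E18-DZ and no separation of early from late libraries. MYF5+ cells had 4.54 and 0 CPM (E16), 12.8 and 22.6 (E18), 29.2 and 26.1 (E21) and 30.5 and 28.3 (E28), and all 4 late libraries lay above all early ones. In E16-DZ 0 of 31 MYF5+ cells had a MET UMI, a count that leaves shares of up to 9.68% possible. In mesenchymal cells the range was 2.46 to 6.96 CPM. Endothelial cells had 0.213 and 0.717 CPM (E16), 1.75 and 2.53 (E18), 8.34 and 10.1 (E21) and 4.94 and 10.5 (E28), each late library above each early one. A MET UMI was found in 3.57 and 0% (E16), 9.33 and 12.8% (E18), 13.5 and 14.2% (E21) and 14.6 and 12.4% (E28) of MYF5+ cells, and after each cell was thinned to 1500 UMIs in 0 and 0% (E16), 1.92 and 5.15% (E18), 4.77 and 3.69% (E21) and 4.74 and 4.15% (E28). From E18-DZ on the unthinned shares lay within 12.4% to 14.6%. Erythroid cells had a MET UMI in at most 3.51% of cells and 1.79% after thinning. Outside the gates MET stood at 6.73 CPM in epithelial cells of E16-DZ and 23.1 CPM in those of E18-ZZ, above the PAX3+ and MYF5+ cells of both libraries, and at 12.4 and 24.2 CPM in neurons of E21.

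Of the UMIs of CXCR4, the signalling receptor of CXCL12, 12.2% were in PAX3+ cells and 73.3% outside the 4 gates. Among the cell types examined its highest levels were those of PAX3+ cells of E21. The levels in PAX3+ cells were 45.3 and 49.3 CPM (E16), 58.7 and 37.3 (E18), 269.6 and 207 (E21) and 5.25 and 0 (E28). Both E21 libraries stood above all others, while the E28 libraries held 3 and 0 UMIs and were the lowest. The share of PAX3+ cells with a UMI was 21.4 and 23.3% (E16), 25.3 and 15.4% (E18), 43.2 and 40.8% (E21) and 2.26 and 0% (E28), and 5.26 and 7.51% (E16), 8.70 and 6.05% (E18), 28.5 and 25.7% (E21) and 0.758 and 0% (E28) after thinning, against at most 4.35% and 2.22% in erythroid cells. The 0 of 61 cells in E28-DZ allows a share of up to 4.92%. With the cells divided by somite markers, the high E21 levels were those of cells without such a marker. Cells with a somite marker had 13.8 and 40.1 CPM (E16), 23.1 and 8.39 (E18), 21.7 and 11.5 (E21) and 0 and 0 (E28). Cells without one had 75.2 and 56.1 CPM (E16), 99.5 and 75.2 (E18), 372 and 305 (E21) and 11.0 and 0 (E28), at or above the marker-bearing cells in every library. The neuronal markers ELAVL3, ELAVL4, STMN2 and DCX together stood at 18.9 to 28.5 CPM early and 906 to 2604 CPM late in PAX3+ cells with a somite marker, and at 67.5 to 291 and 477 to 1030 CPM in those without. STMN2, in these sums, was not particular to neurons at E28, as given above. Neurons themselves had CXCR4 at 47.3 to 141 CPM from E18 to E21. How much neural cells gave to these PAX3+ levels was not tested. SOX2 had no row by that name in the matrices, and the exclusion of neural cells rested on SOX10 and PAX6. In an alternative chosen after the data were seen, PAX3+ and MYF5+ cells with SOX3 or a neuronal gene were left out too. There CXCR4 kept its calls by edgeR in PAX3+ against mesenchymal and in MYF5+ against PAX3+ cells, given below. This alternative does not leave out neural cells without a UMI of those genes, so it does not test the neural part. With a somite marker required of PAX3+ cells, the call in MYF5+ against PAX3+ cells was lost.

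**Figure D2:**
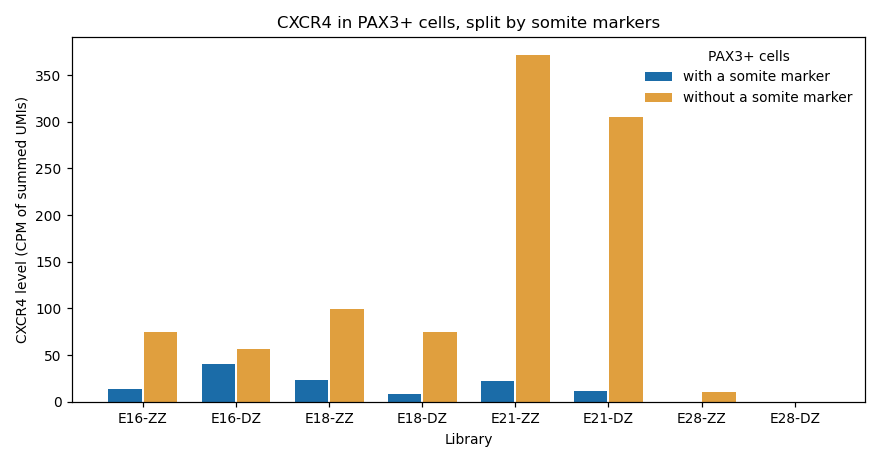
CXCR4 level in CPM of summed UMIs (vertical axis, from 0) in PAX3+ cells with and without a UMI of MEOX1, TCF15, DMRT2 or MEOX2, for each library. Cells without a somite marker reach 372 and 304.7 CPM in the E21 libraries, against 21.7 and 11.5 CPM in cells with one.

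Endothelial cells also carried CXCR4, at 18.1 and 31.3 CPM (E16), 34.9 and 27.5 (E18), 115 and 119 (E21) and 115 and 88.6 (E28). All late libraries were above all early ones, and a UMI was found in 8.35% to 14.3% of early and 19.1% to 23.3% of late cells, or 2.36% to 4.60% and 8.43% to 12.8% after thinning. MYF5+ cells had 8.79 to 35.8 CPM and mesenchymal cells 1.64 to 9.75 CPM. MYOG+ cells, the differentiating muscle cells, had 79.3 and 58.6 CPM at E18 and 14.5 to 23.2 CPM later. SOX10+ cells had 23.5 to 60.7 CPM in early and 21.1 to 49.3 CPM in late libraries, and epithelial cells of the early libraries 24.8 to 49.1 CPM.

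ACKR3, the scavenging receptor of CXCL12, was low throughout. In endothelial cells it had 8.08 and 6.74 CPM (E16), 3.78 and 5.37 (E18), 6.49 and 12.6 (E21) and 17.3 and 31.6 (E28), and both E28 libraries were the highest. Erythroid cells had 3.67 to 19.6 CPM, above the level over all cells (3.68 to 8.46 CPM) in 6 of the 8 libraries, and so gave no reference for free RNA of this gene. PAX3+ cells had 0 to 8.75 CPM, MYF5+ cells 0 to 10.1 CPM and mesenchymal cells 3.61 to 9.51 CPM.

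GAB1 was found in every gate. Mesenchymal levels were 16.6 and 17.5 CPM (E16), 18.6 and 19.4 (E18), 24.5 and 31.5 (E21) and 44.9 and 58.5 (E28), and endothelial levels 30.6 and 28.1 CPM (E16), 24.4 and 25.6 (E18), 51.9 and 56.8 (E21) and 55.6 and 72.1 (E28). In both gates every late library exceeded every early one. PAX3+ cells had 12.6 and 17.4 CPM (E16), 23.8 and 25.1 (E18), 27.0 and 26.3 (E21) and 45.5 and 46.5 (E28), again without overlap, and MYF5+ cells 13.6 to 34.5 CPM with overlap. Erythroid cells had 0 to 15.9 CPM.

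LBX1 was almost absent from the counts. A UMI was found in 31 of 74147 cells, 0.0418% (95% exact binomial interval 0.0284% to 0.0593%, counting error only), with 0 and 2 such cells from E16, 1 and 8 from E18, 7 and 6 from E21, then 0 and 7 from E28. The 0 of 5436 cells in E16-ZZ allows up to 0.0552% and the 0 of 9882 cells in E28-ZZ up to 0.0304%, and with 1 library for each stage and breed the order of the libraries was not tested. By gate 7 of the cells were PAX3+, 8 MYF5+ and 1 mesenchymal, none was endothelial or erythroid, and 15 lay outside the 4 gates. Of the 7 PAX3+ cells 1 had a somite marker and 6 had none. Whatever their gate, 4 met the rule for neurons. All 7 cells of E28-DZ were MYF5+, and of these PAX7 was found in 5 and MYOD1 in 4. Over all 31 cells PAX3 was found in 9, PAX7 in 9, MYF5 in 8, STMN2 in 8, MET in 4, CXCR4 in 3, GAB1 in 2 and HGF and ACKR3 in none. With at most 2 LBX1-positive cells in the PAX3+ gate of a library, the planned comparison of PAX3+ cells with and without LBX1 could not be fitted, and LBX1 passed the filter on low counts in no comparison.

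The gates of the same libraries were then compared. PAX3+ cells had more MET and CXCR4 and less CXCL12 than mesenchymal cells, and endothelial cells had more CXCR4 and GAB1 and less CXCL12. In PAX3+ against mesenchymal cells 6 of the 7 genes passed the filter and 4 were called, HGF among them, beside 11.5% of the 12072 genes tested. MET was higher by 1.69 ± 0.31 (SE), adjusted p = 0.000399, and CXCR4 by 3.78 ± 0.50 (SE), adjusted p = 7.25e-06. CXCL12 differed by -2.41 ± 0.31 (SE), adjusted p = 6.14e-06. HGF passed the filter only through the mesenchymal cells, with 11 UMIs in all PAX3+ cells and 30 in endothelial cells, so the filter fixed its calls against mesenchymal cells, and its log2 difference of -3.46 is a description without a test. GAB1 (-0.06, 95% interval -0.42 to 0.30) and ACKR3 (-0.53, -1.25 to 0.20) were not called.

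With the PAX3+ cells limited to those with a somite marker, MET, CXCR4 and CXCL12 were again called by edgeR, beside 4.82% of 11690 genes. MET then differed by 2.19 ± 0.33 (SE), adjusted p = 8.73e-05. HGF had 7 UMIs in these cells and again passed the filter through the mesenchymal cells, so that its difference of -2.96 is a description. The difference of CXCR4 dropped to 1.70 ± 0.49 (SE), adjusted p = 0.0374, and that of CXCL12 was -2.04 ± 0.28 (SE), adjusted p = 2.60e-05.

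MYF5+ and PAX3+ cells differed in 1 of the 6 genes tested, beside 8.1% of all genes. CXCR4 was lower in MYF5+ cells, at -1.85 ± 0.52 (SE), adjusted p = 0.0249 by edgeR, and was not called by DESeq2, at -1.43 (adjusted p = 0.0958). Against PAX3+ cells with a somite marker it was 0.25 ± 0.50 (SE), adjusted p = 0.921, where edgeR called 0 of the 6 genes beside 3.14% of all genes, 0 had an unadjusted p under 0.05 and DESeq2 was not run. With all PAX3+ cells but without E21-ZZ it was -1.40 (adjusted p = 0.186) and without E21-DZ -1.35 (adjusted p = 0.156). MET differed by 0.50 (95% interval -0.14 to 1.14) and CXCL12 by 0.94 (adjusted p = 0.0852 by edgeR). Without E28-ZZ the CXCL12 difference was 1.10 (adjusted p = 0.0490) and without E28-DZ 1.19 (adjusted p = 0.0346), both then called by edgeR. HGF was at 0.93 (-0.55 to 2.41), on few UMIs, ACKR3 at 0.54 (-0.27 to 1.35) and GAB1 at -0.22 (-0.62 to 0.19).

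Endothelial against mesenchymal cells gave 4 calls among 6 genes, HGF again fixed by the filter, beside 45.9% of all genes. CXCR4 was higher by 3.50 ± 0.49 (SE), adjusted p = 1.62e-06, and GAB1 by 0.65 ± 0.16 (SE), adjusted p = 0.00197. CXCL12 was lower, at -1.22 ± 0.27 (SE), adjusted p = 0.000609, and the log2 difference of HGF was -2.55, again a description. At a mitochondrial limit of 5%, which left 22 to 169 endothelial cells a library, only CXCR4 was still called and CXCL12 stood at 0.0081. ACKR3 (0.69, adjusted p = 0.0674 by edgeR) was called without E16-DZ, at 0.87 (adjusted p = 0.0338), and MET differed by -0.47 (95% interval -1.26 to 0.33).

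**Figure D3:**
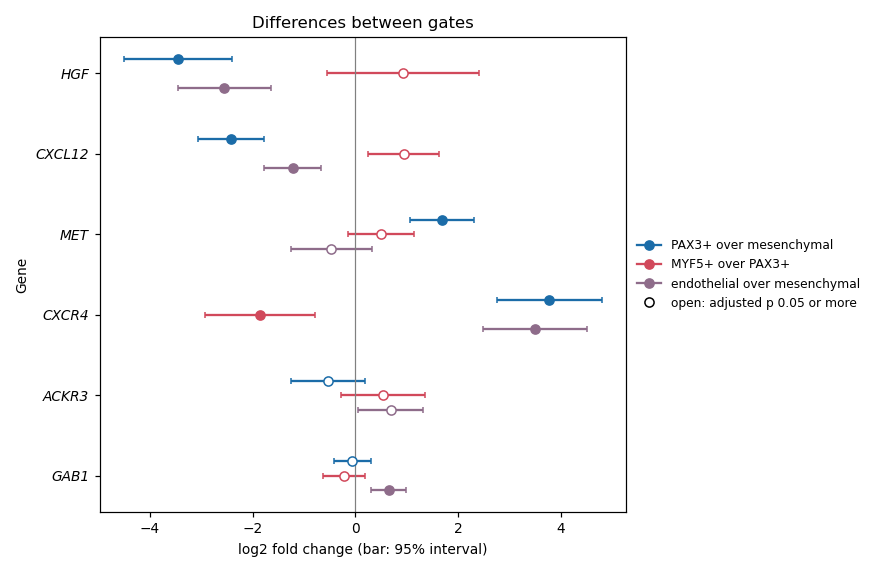
log2 fold change (horizontal axis, bars are 95% intervals) of 6 genes between gates, with filled points for an adjusted p under 0.05. HGF, which passed the filter through mesenchymal cells alone, and CXCL12 lie to the left of 0 and CXCR4 to the right in PAX3+ and endothelial cells against mesenchymal cells, and MET to the right in PAX3+ cells only.

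Genes of the same pathways were taken as lists of HGF processing (8 genes), MET signalling (18), CXCL12 signalling (15, of which ELMO1 had no row by that name) and regulators of migratory precursors (13). In PAX3+ against mesenchymal cells where 11.5% of all genes were called, the regulators had 5 higher and 1 lower of 13 tested, with a median of 0.80 beside -0.01 over all genes. PAX3, among the higher genes, was fixed by the gates, while PAX7 was at 4.26 ± 0.22 and EYA1 at 1.24 ± 0.22. MET signalling had 0 higher and 1 lower of 18 (median 0.03), the adaptor SHC1 at -0.78 ± 0.19. CXCL12 signalling had 0 higher and 2 lower of 12 (median -0.10), with the chemokine CXCL14 at -2.69 ± 0.58 and the arrestin ARRB1 at -1.16 ± 0.26. HGF processing had 0 higher and 1 lower of 5 (median 0.25), the urokinase PLAU, which can activate HGF, at -1.95 ± 0.65.

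In MYF5+ against PAX3+ cells, where 8.1% of all genes were called, the regulators had 2 higher and 3 lower of 13, with a median of 0.44 beside -0.0040 over all genes. PAX3, among the lower genes, was required by the PAX3+ gate. The homeobox gene MSX1 was at -2.90 ± 0.32. HGF processing had 1 of 5 lower (median -0.24), the plasminogen activator PLAT at -1.75 ± 0.35, and CXCL12 signalling 1 of 12 lower (median 0.11), the G protein subunit GNAI2 at -0.74 ± 0.15. None of 18 MET signalling genes was called (median -0.10).

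Endothelial cells had 11 higher and 1 lower of 18 MET signalling genes against mesenchymal cells, with a median of 0.50 beside -0.04 over all genes, of which 45.9% were called. Among them were SHC1 at 2.37 ± 0.16 and the feedback inhibitor SPRY4 at 2.50 ± 0.23. CXCL12 signalling had 6 higher and 2 lower of 12 (median 0.29), with GNAI2 at 1.48 ± 0.14 and the GTPase RAC1 at 0.67 ± 0.07. The regulators had 0 higher and 10 lower of 13 (median -1.65), with SIX4 at -1.94 ± 0.24 and the ephrin receptor EPHA4 at -1.96 ± 0.25. HGF processing had 1 higher and 1 lower of 5 (median 0.31), the protease inhibitor SPINT2 at 3.27 ± 0.43 and the proteoglycan SDC1 at -1.44 ± 0.19.

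Late libraries were then compared with early ones within each gate. In endothelial cells CXCR4 and GAB1 rose, in MYF5+ cells CXCL12 and in mesenchymal cells GAB1, while none of the genes was called in PAX3+ cells. Of the 7 genes 4 passed the filter in PAX3+, 5 in MYF5+, 6 in mesenchymal and 5 in endothelial cells. LBX1 passed in none, HGF in mesenchymal cells alone, and ACKR3 in all but PAX3+ cells.

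In endothelial cells 3 of 5 genes were called, MET among them, beside 23.6% of 9886 genes. CXCR4 rose by 1.84 ± 0.20 (SE), adjusted p = 0.000546. GAB1 rose by 0.95 ± 0.18 (SE), adjusted p = 0.00566. MET passed the filter only through the late libraries, each early one lying below the cut-off, so the filter fixed its direction and its log2 difference of 2.70 is a description without a test. It had few molecules, with 1 and 5 UMIs (E16), 6 and 8 (E18), 9 and 8 (E21) and 4 and 7 (E28) in 68 to 932 cells a library, and its share of cells after thinning was 0.215% to 0.307% early and 1.06% to 2.08% late, which is 1 to 3 cells a library. CXCL12 (1.86, adjusted p = 0.0523) and ACKR3 (1.24, adjusted p = 0.07) were not called by edgeR. CXCL12 was called by edgeR without E18-ZZ (2.52, adjusted p = 0.0149) and without E28-ZZ (2.26, adjusted p = 0.0401), and was at 1.19 without E21-DZ (adjusted p = 0.145). ACKR3 was called by edgeR without E16-ZZ (1.63, adjusted p = 0.0318) and without E21-ZZ (1.56, adjusted p = 0.0352), and was at 0.80 without E28-DZ (adjusted p = 0.271). In this gate the erythroid markers HBE1, HBZ and ALAS2 together ranged from 163 to 7122 CPM early and 42.1 to 219 CPM late. The neuronal markers, STMN2 among them, were at 10.8 to 47.1 and 85.2 to 433 CPM. The epithelial markers EPCAM, CDH1, KRT8 and CLDN6 were at 455 to 1190 and 13.5 to 89.0 CPM, EPCAM being 0 by the rule of the gate. The mesenchymal markers stood at 124 to 625 and 549.7 to 1378 CPM, the macrophage markers C1QA, C1QB, CD68 and AIF1 at 0.582 to 2.55 and 0 to 76.6 CPM, the chondrocyte markers SOX9, ACAN, COL2A1 and MATN1 at 30.6 to 80.0 and 79.1 to 153 CPM, and the cardiac markers MYL7, NKX2-5, MYBPC3 and TNNT2 at 9.17 to 73.9 and 3.005 to 13.9 CPM. Their part in the differences was not tested. At a mitochondrial limit of 5% edgeR called none of the members, with CXCR4 at 2.13 (adjusted p = 0.0646) and GAB1 at 1.20 (adjusted p = 0.131). Without both E28 libraries GAB1 was at 0.80 (adjusted p = 0.0728).

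In MYF5+ cells 1 of 5 genes was called, beside 9.62% of 10222 genes. CXCL12 rose by 1.22 ± 0.25 (SE), adjusted p = 0.0109, and without E18-ZZ the difference was 1.20 (adjusted p = 0.0605) by edgeR. The E16 libraries of this gate had only 28 and 31 cells, and without both the difference was 1.16 (adjusted p = 0.0767). With stricter gates (MYF5 at 2 UMIs or more) it was 0.65 (adjusted p = 0.352), and at a mitochondrial limit of 5% 1.00 (adjusted p = 0.140). In MYF5+ cells the 5 mesenchymal markers together stood at 422 to 989 CPM early and 865 to 2885 CPM late and the 4 neuronal ones at 9.07 to 28.7 and 245 to 822 CPM, the epithelial ones at 643 to 2315 and 1.26 to 88.6 CPM, and their part in the difference was not tested. MET was at 0.94 (95% interval 0.20 to 1.67, adjusted p = 0.110 by edgeR) although its late libraries lay above the early ones, ACKR3, which passed the filter only through the late libraries, at 1.57, CXCR4 at -0.58 (adjusted p = 0.200) and GAB1 at -0.02. CXCR4 was called by edgeR without E28-DZ, at -0.82 (adjusted p = 0.0476).

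In mesenchymal cells 1 of 6 genes was called, below the 31.8% of 12544 genes called. GAB1 rose by 0.97 ± 0.23 (SE), adjusted p = 0.0157, and was not called without E16-DZ (0.94, adjusted p = 0.0524 by edgeR) or without E28-ZZ (0.80, adjusted p = 0.0601). Without both E28 libraries it was at 0.52 (adjusted p = 0.0982) and without both E16 libraries at 0.98 (adjusted p = 0.107). CXCL12 was at 1.24 (adjusted p = 0.0666 by edgeR) and was called without E18-DZ, at 1.71 (adjusted p = 0.0329). CXCR4 was at -1.06 (adjusted p = 0.0979 by edgeR) and was called without E21-ZZ, at -1.58 (adjusted p = 0.0282). HGF was at -0.71 (95% interval -2.58 to 1.16), MET at -0.29 (-1.03 to 0.45) and ACKR3 at -0.40 (-1.34 to 0.54). In this gate the neuronal markers, STMN2 among them, stood at 7.15 to 37.4 CPM early and 167.7 to 904 CPM late. The epithelial ones, close to KRT8 alone and without EPCAM by the rule of the gate, stood at 2487 to 7196 and 4.01 to 104 CPM. The chondrocyte ones stood at 72.9 to 229 and 364 to 476 CPM. The part of these markers was not tested.

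In PAX3+ cells edgeR called 0 of 4 genes, beside 10.7% of 9800 genes, with 2 at an unadjusted p under 0.05 and 1 called by DESeq2. CXCL12 was at 1.60 ± 0.49 (SE), adjusted p = 0.0591 by edgeR, and was called without E21-ZZ (1.90, adjusted p = 0.0289) and without E21-DZ (1.95, adjusted p = 0.0309). In PAX3+ cells with a somite marker it was called, at 1.86 ± 0.43 (SE), adjusted p = 0.0113 by edgeR, the only call among 4 members, beside 13.6% of 7050 genes. The mesenchymal markers COL1A1, COL1A2, DCN, LUM and COL6A3 together moved with it, from 167.4 to 424 CPM in early to 798 to 4485 CPM in late PAX3+ cells. In PAX3+ cells with a somite marker they stood at 139 to 496 CPM early and 1459 to 5353 CPM late. The epithelial markers stood there at 557 to 958 and 0 to 28.8 CPM, and the part of these markers in the difference was not tested. CXCR4 was at 1.43 ± 0.75 (SE), adjusted p = 0.240 by edgeR, and was called without E28-ZZ, at 1.82 (adjusted p = 0.0458), but was at 0.54 without E21-ZZ (adjusted p = 0.743) and 0.67 without E21-DZ. It was also called with stricter gates, at 2.40 (adjusted p = 0.00443 by edgeR), and without both E28 libraries, at 2.21 (adjusted p = 4.29e-05). With a somite marker it was at -0.84 ± 0.65 (SE), adjusted p = 0.424 by edgeR. Late against early, GAB1 was at 0.64 and MET at 0.01 (95% interval -0.93 to 0.95). Tested over the 4 stages instead, edgeR called all 4 genes. The adjusted p was 3.96e-09 for CXCR4, with its high E21 and low E28 libraries, 7.05e-06 for CXCL12, 0.0195 for MET and 0.0217 for GAB1. The share of all genes called by that test is not given, so these calls are no result about the 4 genes alone.

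**Figure D4:**
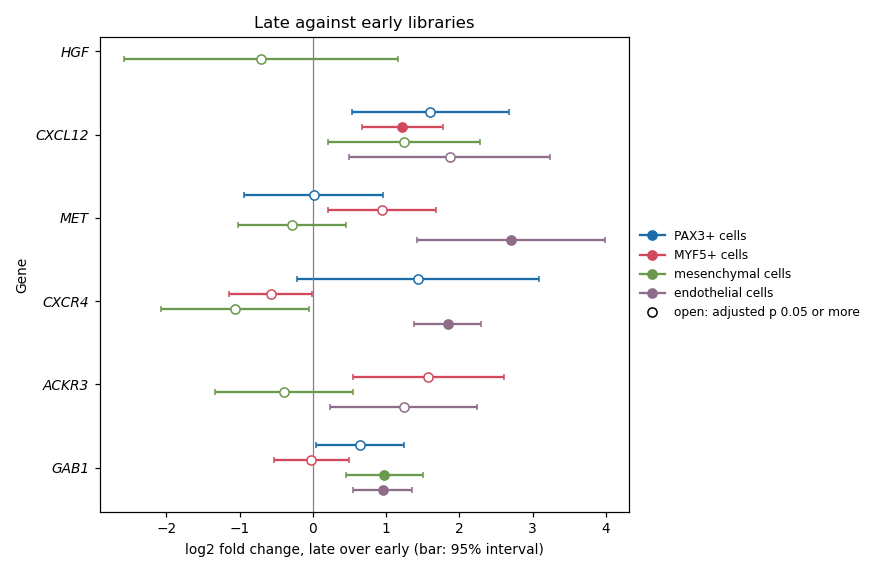
log2 fold change of late over early libraries (horizontal axis, bars are 95% intervals) for each gene that passed the filter in a gate, with filled points for an adjusted p under 0.05. Filled points are CXCR4, GAB1 and MET in endothelial, GAB1 in mesenchymal and CXCL12 in MYF5+ cells, MET having passed the filter through the late libraries alone.

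Whether these differences between stages themselves differed from those of mesenchymal cells was tested by interaction terms added after the data were seen. For MET the term of endothelial cells was 2.83. It rests on the same endothelial counts, 48 UMIs in all, whose late against early direction the filter fixed, so it is a description without a test. The difference of CXCR4 was larger in endothelial than in mesenchymal cells, by 2.92 ± 0.66 (SE), adjusted p = 0.00440 by edgeR. ACKR3 differed by 1.60 ± 0.48 (SE), adjusted p = 0.0284, and was not called when any library other than E21-ZZ or E28-ZZ was left out (1.09 to 1.67, adjusted p = 0.0529 to 0.151). The difference of MYF5+ cells departed from that of mesenchymal cells by 1.53 ± 0.33 (SE), adjusted p = 0.00356 for MET, and by -1.03 ± 0.31 (SE), adjusted p = 0.0329 for GAB1. The GAB1 difference was not called without E16-DZ, E18-ZZ, E18-DZ, E28-ZZ or E28-DZ (-1.01 to -0.77, adjusted p = 0.0878 to 0.155). CXCR4 in PAX3+ cells differed by 2.44 ± 0.66 (SE), adjusted p = 0.0417, was not called by edgeR without any 1 of the 6 libraries up to E21 (2.03 to 2.61, adjusted p = 0.0720 to 0.177), and was at 0.21 with a somite marker (adjusted p = 0.988), where 0 of 6 members were called and 0 had an unadjusted p under 0.05 beside 1.26% of all genes called, DESeq2 not being run. The uncalled terms lay between -0.37 (GAB1) and 0.93 (HGF) in PAX3+, 0.26 (CXCL12) and 1.56 (ACKR3) in MYF5+, and -0.25 (HGF) and 0.56 (CXCL12) in endothelial cells. The calls over all genes were 11.3% in endothelial (717 higher and 645 lower, or 889 and 467 with the size factors of DESeq2), 9.34% in MYF5+ and 2.79% in PAX3+ cells.

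Among the other pathway genes, endothelial cells had 9 of 18 MET signalling genes higher and none lower in late libraries, with a median of 0.70 beside 0.02 over all genes, of which 23.6% were called. These included the inhibitors SPRY1 (3.16 ± 0.34) and SPRY4 (1.94 ± 0.29) and the exchange factor SOS1 (1.47 ± 0.20). CXCL12 signalling had 1 higher and 3 lower of 12 (median 0.10), with CXCL14 at -5.47 ± 0.60, GNAI2 at 0.90 ± 0.24 and ARRB2 at -0.85 ± 0.27. Of 8 regulators tested 2 were higher (median 0.47), MEOX2 at 3.41 ± 0.72 and the ephrin EFNA5 at 1.19 ± 0.34, and of 3 HGF processing genes 1 (median 0.73), SPINT2 at 0.73 ± 0.24.

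Late MYF5+ cells had 3 of 16 MET signalling genes higher (median 0.11 beside 0.03 over all genes, of which 9.62% were called), SPRY1 at 2.81 ± 0.35, SPRY2 at 1.65 ± 0.28 and PIK3R1, a subunit of PI3-kinase, at 0.68 ± 0.18. The regulators had 3 of 13 higher (median -0.33), among them the receptor FGFR4 at 5.74 ± 0.76 and PAX7 at 2.09 ± 0.36. PLAT, of 3 HGF processing genes (median -2.11), was lower at -2.12 ± 0.32, and none of 12 CXCL12 signalling genes was called (median -0.11).

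Late mesenchymal cells had 7 higher and 1 lower of 12 regulators, with a median of 1.02 beside 0.03 over all genes, of which 31.8% were called. Among them were EYA2 at 2.68 ± 0.50, PAX7 at 2.67 ± 0.59 and the cadherin CDH2 at 1.02 ± 0.24. In the same cells the PAX3+ markers MEOX1, TCF15, DMRT2 and PAX7 together stood at 12.7 to 36.1 CPM early and 60.5 to 143.1 CPM late. The MYF5+ markers MSC, PAX7, MYOD1 and CHRNA1 stood at 0.333 to 3.39 and 6.54 to 17.5 CPM, MYOD1 being 0 by the rule of the gate. The part of these markers was not tested. MET signalling had 5 higher and 1 lower of 18 (median 0.28), with STAT3 at 1.57 ± 0.28, PIK3R1 at 1.26 ± 0.23 and SPRY4 at 2.06 ± 0.59. CXCL12 signalling had 0 higher and 3 lower of 13 (median -0.10), with CXCL14 at -4.84 ± 1.06, ARRB1 at -1.05 ± 0.32 and the receptor kinase GRK3 at -0.68 ± 0.12. Of 5 HGF processing genes 2 were lower (median -0.37), PLAT at -1.03 ± 0.26 and SPINT1 at -6.01 ± 0.84, an inhibitor found in epithelia. The epithelial gene KRT8 was also lower in late than in early libraries of this gate, and its part was not tested.

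In late PAX3+ cells CXCL14 was the 1 lower of 12 CXCL12 signalling genes, at -4.06 ± 0.75 (list median -0.08 beside 0.02 over all genes, of which 10.7% were called). PAX7 was the 1 higher of 13 regulators, at 1.58 ± 0.39 (median 0.27), and STAT3 the 1 higher of 16 MET signalling genes, at 1.36 ± 0.39 (median 0.23). None of 3 HGF processing genes was called (median -0.52).

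Between the breeds none of the 7 genes was called in any gate. In 20 tests of the 7 genes edgeR called 0 and DESeq2 called 0, with 2 at an unadjusted p under 0.05, and the lowest adjusted p was 0.563. As DZ over ZZ, CXCR4 in MYF5+ cells was at -0.64 ± 0.21 (SE), adjusted p = 0.563, and MET in PAX3+ cells at 0.68 ± 0.27 (SE), adjusted p = 0.767 (0.26 without E18-DZ and 0.30 without E18-ZZ). The 20 log2 fold changes lay between -0.64 and 0.72, and the share of all genes called was 0% in PAX3+, 0.103% in MYF5+, 0% in mesenchymal and 0.00967% in endothelial cells, and 0.0261% in PAX3+ cells with a somite marker. The widest interval was that of HGF in mesenchymal cells (-2.08 to 0.86). Of the pathway genes 1 was called, CXCL14 in MYF5+ cells, lower in DZ at -3.36 ± 0.58, 1 of 12 CXCL12 signalling genes tested there (median -0.08).

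The genes found beside HGF differed between libraries. From E16 to E21 a COL1A1 UMI, a collagen of fibroblasts and bone, was found in 60.7% to 84.1% of the cells with an HGF UMI, against 21.7% to 41.8% of the other cells of the same library. At E28 the order was the opposite, with 57.8% and 36.6% against 77.7% and 69.1%. In E28-ZZ 66.8% of the 232 cells with HGF had the cartilage factor SOX9 and 81.0% the cartilage collagen COL2A1, against 21.8% and 42.0% of the other cells, while the 41 cells of E28-DZ had 19.5% and 26.8%. CXCL12 was found in 84.5% and 66.7% of the HGF cells at E21, against 27.2% and 35.2% of the others, and in 36.6% and 31.6% at E16, against 19.2% and 13.7%. At E18 it was in 22.7% and 29.2%, against 24.5% and 26.2%, and at E28 in 28.9% and 24.4%, against 28.6% and 30.0%. Of the 490 mesenchymal cells with HGF, 228 also had CXCL12. These shares were not thinned, have no test, and describe cells of single libraries.

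**Figure D5:**
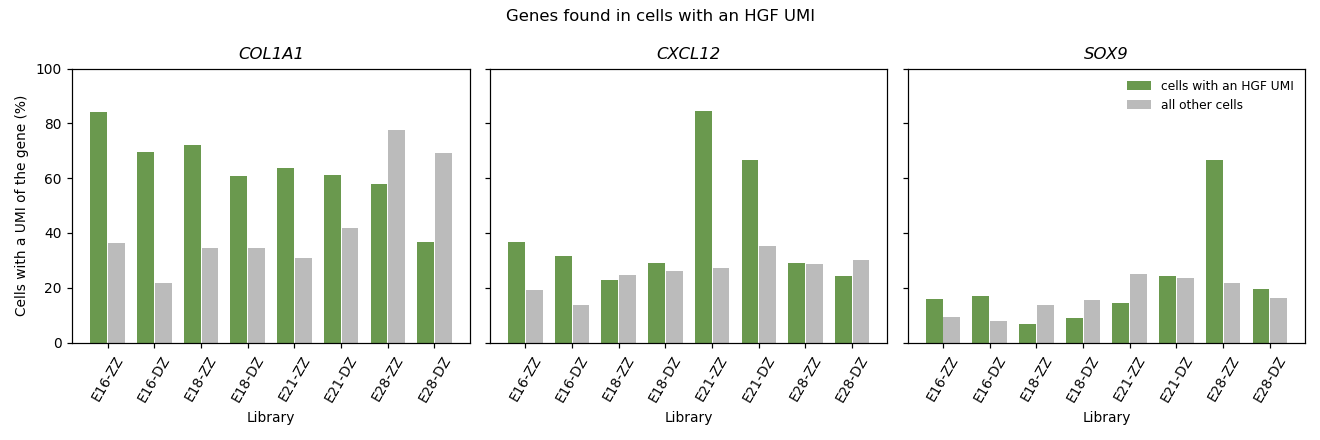
Percent of cells with a UMI of COL1A1, CXCL12 and SOX9 (vertical axes, 0 to 100) among cells with an HGF UMI and among all other cells of each library. SOX9 is found in 66.8% of the HGF cells of E28-ZZ and in 6.72% to 24.3% of those of the other libraries.

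Some cells held UMIs of more than 1 of the genes. Of 2736 PAX3+ cells 181 had MET and 332 GAB1, and 21 had both. Of 4333 MYF5+ cells 561 had MET, 524 GAB1 and 78 both. Among 744 PAX3+ cells with CXCR4, 16 had ACKR3, and among 334 such endothelial cells 44. These counts rise with the depth of a cell and were not compared.

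Over 64 sums of a gate or reference cell type in a library, the genes with the highest Pearson correlation of log2(CPM + 1) were PDGFC (0.763), TUT4 (0.710) and LMOD1 (0.709) for MET, CRISPLD2 (0.646), FBLN7 (0.583) and PRRX1 (0.564) for HGF, and CHD7 (0.835), DCLK2 (0.809) and CECR2 (0.790) for CXCR4. For CXCL12 they were COL3A1 (0.797), CALD1 (0.772) and SLC1A3 (0.755), and for GAB1 TSC22D2 (0.848), ERBIN (0.809) and SAMD4A (0.809). For ACKR3 they were an unnamed gene (0.616), OSTF1 (0.608) and IFI44L (0.592). PRRX1 and COL3A1 were used by the mesenchymal gate, the sums share libraries and depth, and LBX1 was too sparse for such a list.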

How the data were processed

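UMI counts per gene and cell from the 3′ (v3) 10x libraries were deposited by the authors as matrices made with Cell Ranger against Sscrofa11.1 and Ensembl release 98, and were used as raw counts. The study's limits were applied, at least 200 genes, at most 30000 UMIs and at most 10% mitochondrial UMIs (13 genes). For doublets the cells with the highest Scrublet scores were removed, at a rate of 0.8% per 1000 barcodes (8247 cells, against 1318 by the automatic threshold of Scrublet).

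Counts were summed per gate and library where at least 20 cells were present. SOX1, SOX2, TUBB3, TWIST1, TWIST2 and HBA had no row by name, so that neural cells were left out by SOX10 and PAX6 alone. Erythroid cells had at least 5% globin UMIs, and neurons at least 3 neuronal genes. Sums were tested with the quasi-likelihood test of edgeR (TMM, filterByExpr, Benjamini-Hochberg over all genes tested), with breed as covariate for late against early, stage as a block for DZ against ZZ and library as a block between gates. Of 12 planned comparisons 11 could be fitted, and 3 differences between gates were added after the data were seen. The members, the pathway lists and the markers were chosen with earlier results of these data known. The text gives all 7 members in each comparison, by value or by the range they lay in, from each list the up to 3 called genes with the smallest adjusted p (some are not reported here), and the 3 genes with the highest correlation over sums with a CPM of 10 or more in at least 2.

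Alternatives covered doublets, cell limits, gates, size factors, DESeq2, filters, covariates and each library left out. Shares of cells were also given after thinning each cell to 1500 UMIs, which left out shallower cells. Floors for a count of 0 used 3 counts, and floors and intervals cover counting error only. The script for the edgeR test was tested on simulated data. R 4.3.3, edgeR 4.0.16, DESeq2 1.42.0, Python 3.11.15, scanpy 1.11.5, numpy 2.4.6, scipy 1.17.1 and pandas 2.3.3 were used.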

Additional observations from a re-analysis of the deposited data

Results flagged for a closer look

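In 7 of 56 groups of 4 libraries (a gene, a gate and a period) 1 library stood apart by Dixon's test, where chance gives about 1 in 20. For LBX1 these were E16-ZZ among early PAX3+ cells (0 CPM), E18-DZ among early MYF5+ cells (0.491 CPM), E28-DZ among late MYF5+ cells (0.881 CPM) and E21-ZZ among late mesenchymal cells (0.122 CPM), all at a few UMIs or none. In the last 3 of these groups the other 3 libraries were at 0, which fixes the result whatever the count, so the number of groups cannot be set against chance. HGF in late PAX3+ cells stood apart in E21-DZ (2.56 CPM). CXCR4 was apart in E21-DZ among late MYF5+ cells (8.79 CPM) and in E28-DZ among late endothelial cells (88.6 CPM).

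By a test of the difference itself, with edgeR's interaction terms, the late minus early log2 difference departed from that of mesenchymal cells in 3 gates. This held for CXCR4 in PAX3+ cells (2.44), MET (1.53) and GAB1 (-1.03) in MYF5+ cells, and CXCR4 (2.92) and ACKR3 (1.60) in endothelial cells. The MET term of endothelial cells (2.83) is a description, as it rests on few endothelial molecules, 48 UMIs in all.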

How the results depend on the processing

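In PAX3+ against mesenchymal cells MET, CXCR4 and CXCL12 each kept direction and call in 20 of 20 alternative values, and CXCR4 in endothelial against mesenchymal cells in 17 of 17. The other called differences lost the call in 1 to 12 values each, leaving aside MET late against early in endothelial cells and HGF against mesenchymal cells, whose calls the filter fixed. Of 549 values for 27 uncalled differences 48 became called and 30 reversed. The reversed called ones were CXCL12 in endothelial against mesenchymal cells at a mitochondrial limit of 5% (0.0081) and CXCR4 in MYF5+ against PAX3+ cells with a somite marker (0.25). The causes were not tested. No breed difference of the 7 genes was called under any alternative.

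The number of the 7 genes called late against early was 0 in PAX3+, 1 in MYF5+, 1 in mesenchymal and 3 in endothelial cells (MET through the filter). In PAX3+ cells it was 1 without removal of doublets, with stricter gates (2 UMIs, or 3 markers), by DESeq2, without the E28 libraries, without the breed term and with a somite marker, 2 without the filter on low counts and 4 with stage as a factor of 4 levels (there the fold is the mean of late minus that of early stages). In MYF5+ cells it was 0 at the 5% limit, with stricter gates, with at least 50 cells a sum (which removes E16) and without the E16 libraries, 2 without removal of doublets, without the E28 libraries, with stage as a factor and without the breed term, and 3 without the filter. In mesenchymal cells it was 0 without the E16 or the E28 libraries, and 2 with stricter gates, by DESeq2, without the filter, with stage as a factor and without the breed term. In endothelial cells it was 0 at the 5% limit, 1 without the E28 libraries, and 5 without the filter and with stage as a factor. Where the count in PAX3+ cells was 1, the gene was CXCR4 with stricter gates and without the E28 libraries, and CXCL12 otherwise. Calls over all genes moved with the setting as well, in PAX3+ cells from 48 to 3177. The share in each setting is not given, so these counts and those below describe the settings and not the 7 genes.

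In MYF5+ against PAX3+ cells the 1 call became 0 by DESeq2 and with a somite marker, 2 without removal of doublets, with stricter gates and without cells with SOX3 or neuron genes (an alternative chosen after seeing the data, as was the somite marker), and 3 without the neural exclusion. In endothelial against mesenchymal cells the 4 calls (HGF through the filter) became 1 at the 5% limit and without the library block. Of the interaction terms, the 1 call in PAX3+ cells became 0 without removal of doublets, at the 5% limit, without the neural exclusion, with at least 50 cells, by DESeq2 and with a somite marker. The 2 calls in MYF5+ cells became 0 at the 5% limit and 1 with stricter gates or at least 50 cells. The 3 in endothelial cells, MET among them as a description, became 0 at the 5% limit. With 1 library left out the calls late against early were 0 to 1 in PAX3+, 0 to 2 in MYF5+ and 0 to 2 in mesenchymal cells, those of MYF5+ against PAX3+ cells 0 to 2, and those of the interaction terms 0 to 1 in PAX3+ and 1 to 2 in MYF5+ cells.

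Among uncalled differences MET late against early in PAX3+ cells was -0.69 at the 5% limit, -0.0182 by DESeq2, -0.0525 without the filter, -0.46 without the E16 libraries, -0.0514 without the breed term, -0.35 without SOX3 or neuron genes and -0.31 with a somite marker, and -0.29 to 0.54 with 1 library left out, with values of -0.12 without E16-ZZ, -0.29 without E16-DZ, -0.03 without E21-ZZ, -0.16 without E21-DZ and -0.02 without E28-ZZ. GAB1 in MYF5+ cells was 0.15 without removal of doublets, 0.0219 at the 5% limit, 0.0056 without the filter, 0.18 without the E28 libraries, 0.0214 with stage as a factor and -0.16 to 0.10 with 1 library left out, with 0.04 without E16-DZ, 0.10 without E18-ZZ, 0.10 without E28-ZZ and 0.03 without E28-DZ. CXCR4 in PAX3+ cells was -0.81 with stage as a factor and -0.84 with a somite marker. ACKR3 in mesenchymal cells was 0.16 without the E16 libraries, and HGF there 0.10 without the E28 libraries. Between gates MET was 0.52 in endothelial against mesenchymal cells at the 5% limit and -0.0727 in MYF5+ against PAX3+ cells with stricter gates, HGF -0.24 in MYF5+ against PAX3+ cells without SOX3 or neuron genes, and GAB1 0.0625 with a somite marker and -0.14 to 0.0072 with 1 library left out (0.0072 without E28-DZ) in PAX3+ against mesenchymal cells.

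The count of all genes called ranged over the alternatives from 48 to 3177 in PAX3+, 200 to 1773 in MYF5+, 1032 to 6237 in mesenchymal and 378 to 3189 in endothelial cells late against early. It was 334 to 2310 in PAX3+ against mesenchymal, 248 to 1589 in MYF5+ against PAX3+ and 964 to 5796 in endothelial against mesenchymal cells, and 122 to 551, 263 to 1415 and 171 to 1548 for the interaction terms of PAX3+, MYF5+ and endothelial cells. For the breeds it was 0 to 63 in PAX3+, 0 to 112 in MYF5+, 0 to 18 in mesenchymal and 0 to 132 in endothelial cells. Breeds were compared within stages and gates within libraries. The PAX3+ gate with 61 cells in E28-DZ and the MYF5+ gate with 28 and 31 at E16 limit the depth, and LBX1 with 31 cells could not be compared.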
